A study of Rattus norvegicus with 12 samples.

Results

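The 42 genes described here are the cyclins, kinases, replication factors and spindle proteins that carry a dividing cell from G1 through mitosis. They were read on 12 one-color arrays of rat hippocampal cultures, and 38 of the 42 were matched to a probe through the transcript identifier on the array, out of 15148 named genes. The matched genes comprised 6 of 6 G1 cyclins and cyclin-dependent kinases, 10 of 11 genes of DNA replication and nucleotide supply, and 22 of 25 genes of G2 and mitosis. Mcm5, Bub1b, Top2a and Mki67 had no matched probe. Where a gene had several probes, as 9 of the 38 had, the probe with the highest mean signal over the 12 arrays stood for it.

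The cultures were hippocampal neurons of Wistar rat embryos at embryonic day 18, kept for 14 to 15 days in Neurobasal medium. In the OGD groups they passed a period of oxygen and glucose deprivation, in a glucose-free saline with sucrose inside an anaerobic chamber, an in vitro model of ischemia. In the Ctrl groups the saline held glucose and the cultures stayed in the air/CO2 incubator. Both were then returned to conditioned medium for 7 h or 24 h, which gave the groups Ctrl 7h, OGD 7h, Ctrl 24h and OGD 24h with 3 cultures each. All 4 groups had thus been through a change of buffer. The methods estimate a minority of glial cells in such cultures, and the culture steps they give list no antimitotic agent. All 15 neuronal markers on a fixed list were well above background on all 12 arrays.

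Neurons have left the cell cycle, so transcripts of the mitotic machinery in such cultures are usually read as coming from dividing glia, progenitors or vascular cells. D-type cyclins with Cdk4 open G1, cyclin E with Cdk2 leads into S phase, the MCM helicase unwinds DNA there, and cyclin B with Cdk1 drives mitosis. Genes of the first steps are mostly switched on by E2F factors, while mitotic genes carry CCAAT boxes and a cell cycle homology region (CHR) bound by the DREAM and B-MYB complexes. In RNA from whole cultures, fewer cells of a type and less RNA per cell cannot be told apart.

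The sequence around the starts of these genes is shown because the 2 regulatory classes can be read in it. Promoter windows of 300 bases, from 250 before to 50 after the annotated start, were available from RefSeq (assembly GRCr8) for 33 of the 42 genes. Those of Ccnd1, Ccnd2, Ccne2, Mcm4, Rrm2, Ccna2, Aurkb, Ube2c and Tpx2 were not used here. The windows below are those of Cdk1 (chr20:19265043-19265342, plus strand), Ccnb2 (chr8:79981609-79981908, minus strand), Cdc25b (chr3:138859923-138860222, plus strand), Mcm3 (chr9:30733697-30733996, minus strand) and Tyms (chr9:120776034-120776333, minus strand), printed in the direction of the gene. Capitals mark matches, on either strand, to the CCAAT box (CCAAT), to CHR-type letters (TTTGAA or TTCGAA) and to E2F-type letters (TTTCGCGC, TTTCCCGC, TTTGGCGC or TTTGCCGC). Cdk1 and Ccnb2 form the mitotic kinase. Cdc25b, Mcm3 and Tyms had an unadjusted limma p under 0.05 between OGD and control arrays, Tyms at 24 h only. None of them passed the adjustment over all probes.
Cdk1: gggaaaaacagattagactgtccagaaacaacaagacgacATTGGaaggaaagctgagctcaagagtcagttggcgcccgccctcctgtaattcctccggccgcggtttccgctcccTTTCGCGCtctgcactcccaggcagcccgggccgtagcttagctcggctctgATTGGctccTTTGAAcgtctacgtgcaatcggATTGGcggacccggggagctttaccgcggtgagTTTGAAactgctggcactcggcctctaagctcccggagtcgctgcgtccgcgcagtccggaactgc
Ccnb2: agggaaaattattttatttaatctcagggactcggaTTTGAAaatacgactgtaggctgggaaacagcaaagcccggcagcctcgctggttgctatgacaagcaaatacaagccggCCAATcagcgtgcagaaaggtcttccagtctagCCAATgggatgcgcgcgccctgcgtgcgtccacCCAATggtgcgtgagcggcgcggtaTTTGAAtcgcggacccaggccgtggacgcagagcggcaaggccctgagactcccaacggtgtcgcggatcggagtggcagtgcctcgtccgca
Cdc25b: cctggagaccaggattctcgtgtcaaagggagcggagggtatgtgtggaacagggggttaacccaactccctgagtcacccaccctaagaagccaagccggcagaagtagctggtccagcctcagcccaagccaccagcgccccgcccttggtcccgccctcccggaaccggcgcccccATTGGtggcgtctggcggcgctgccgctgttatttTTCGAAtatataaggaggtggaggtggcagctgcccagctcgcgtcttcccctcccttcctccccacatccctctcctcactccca
Mcm3: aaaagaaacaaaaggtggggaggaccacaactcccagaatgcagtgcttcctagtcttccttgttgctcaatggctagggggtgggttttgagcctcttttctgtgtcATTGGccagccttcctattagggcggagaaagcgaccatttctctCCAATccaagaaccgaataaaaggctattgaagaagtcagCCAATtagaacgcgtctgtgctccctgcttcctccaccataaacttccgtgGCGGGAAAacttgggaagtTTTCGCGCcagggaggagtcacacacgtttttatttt
Tyms: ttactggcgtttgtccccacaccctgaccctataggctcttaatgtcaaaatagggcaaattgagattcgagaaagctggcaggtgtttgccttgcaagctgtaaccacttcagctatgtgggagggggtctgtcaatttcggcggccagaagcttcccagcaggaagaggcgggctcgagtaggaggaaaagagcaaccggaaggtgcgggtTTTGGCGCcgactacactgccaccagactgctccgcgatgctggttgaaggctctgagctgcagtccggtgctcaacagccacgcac

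Ccnb2 held 3 CCAAT boxes, 134, 101 and 68 bases before the start, followed by a CHR-type match 43 bases before it. Cdc25b held 1 CCAAT box at 71 bases and 1 CHR-type match at 36 bases before the start. Mcm3 had an E2F-type match on each side of the start, and Tyms held 1 at 37 bases before it. A CCAAT box lay in 18 of 21 windows of mitotic genes (85.7%), in 6 of 9 of replication genes (66.7%) and in 37.5% of all 33469 windows of the table, which cover 27457 symbols. CHR-type letters lay in 15 of the 21 mitotic windows (71.4%), in 3 of the 9 replication windows and in 19.7% of all windows. E2F-type letters were in the windows of Mcm2, Mcm3, Mcm5, Mcm6, Mcm7 and Tyms, 6 of 9 replication genes (66.7%), in 1 of 21 mitotic windows, that of Cdk1, and in 2.14% of all windows. In the mitotic windows 15 matches to TTTGAA read in the direction of the gene and 2 against it, whereas CCAAT was split 21 to 21, and the 3 matches to TTCGAA are palindromes. None of the 3 G1 windows, those of Ccne1, Cdk2 and Cdk4, held CHR-type or E2F-type letters. Among the 33 windows, matches of different motifs shared letters in 3 places. These are matches of letters, and no binding was measured.

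**Figure D1:**
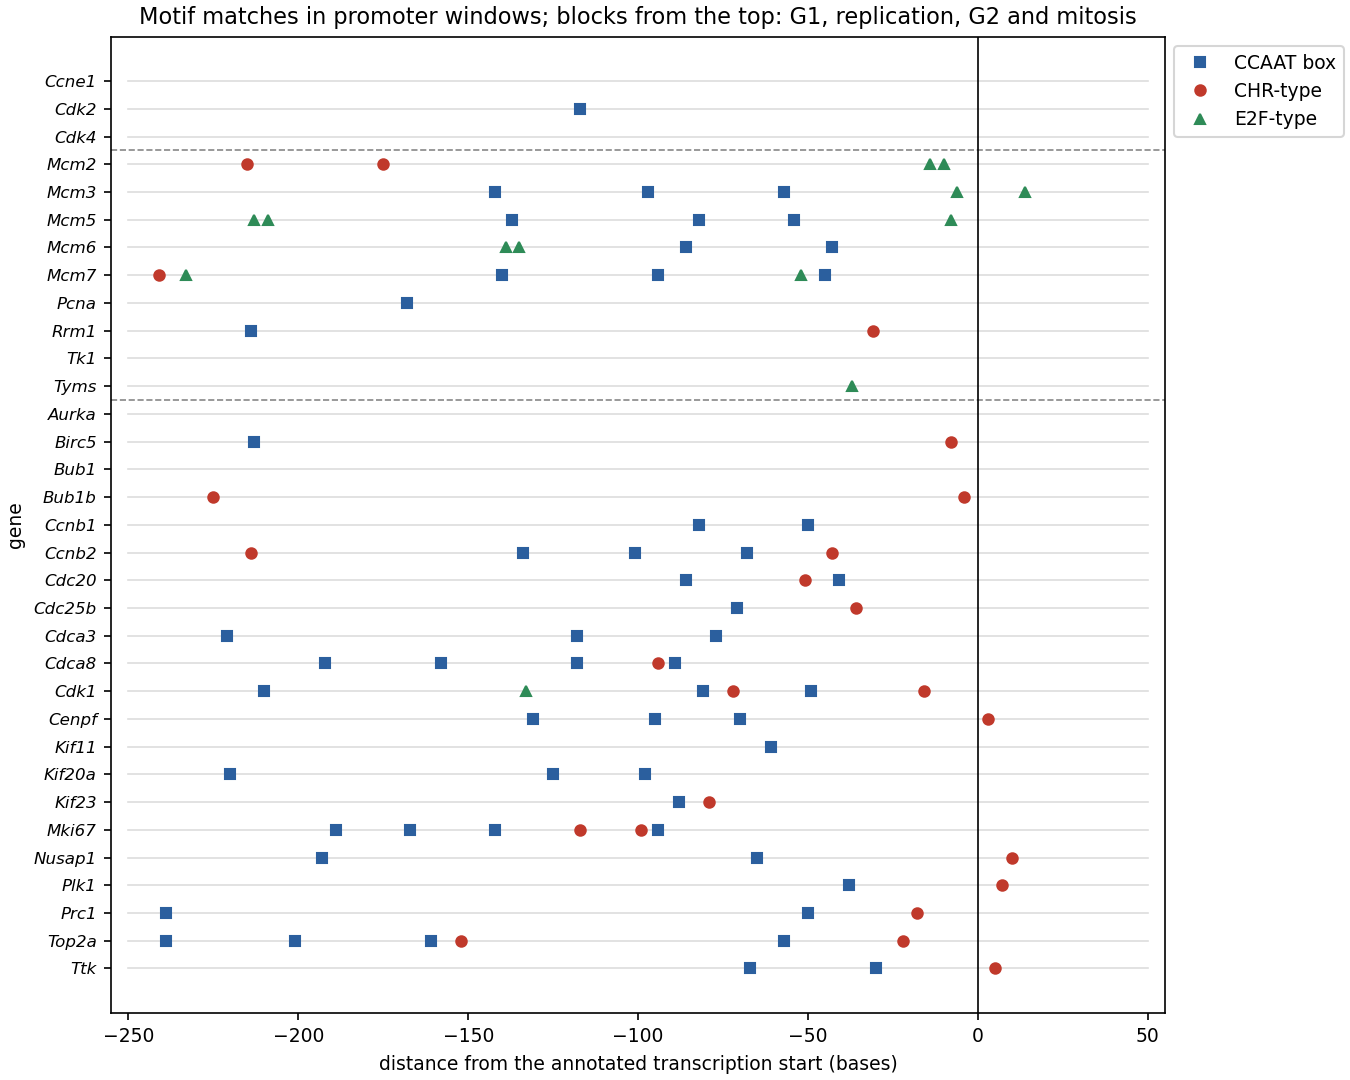
Positions of the 3 kinds of motif in the promoter windows of 33 genes, by distance from the annotated transcription start in bases, with G1 genes at the top, replication genes in the middle and G2 and mitotic genes at the bottom. E2F-type matches (triangles) sit in the block of replication genes except for that of Cdk1, and CCAAT boxes (squares) are in 18 of the 21 mitotic windows.

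Signal is given below as log2 of a probe's background-subtracted intensity minus the median of all non-control probes on that array, so that 0 is the array's median probe and 1 is 2 times its signal. Of the 38 genes, 37 were well above background on all 12 arrays, Ccne2 was on 11, and none was saturated. The median intensity of an array lay between 131 and 660 units and was lowest on OGD 24h replicate 1 and, among the 7 h arrays, on OGD 7h replicate 1. On each of the 6 slides lay a Ctrl and an OGD array that agreed in time and replicate number. Position on the slide was 1 for all Ctrl 7h arrays, 2 for OGD 7h, 3 for Ctrl 24h and 4 for OGD 24h. Group and position thus cannot be told apart in any comparison. All 7 h arrays were scanned on 1 day and all 24 h arrays on another, so the 2 control groups also differ in slide and scan day. The 2 arrays of a slide had different scan times for replicates 1 and 2 at 7 h and replicate 1 at 24 h. Labels call the arrays separate cultures and do not say whether equal numbers share a preparation, so p-values measure the spread between these cultures.

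Few of the cell cycle genes were called between OGD and control. At 7 h of recovery, Mcm3 was higher and Cdc25b lower after OGD. At 24 h, Ccnd1, Mcm3 and Tyms were higher and Cdc25b was again lower. These calls rest on an unadjusted limma p under 0.05. No gene on the array passed the Benjamini-Hochberg adjustment in either comparison, where 3590 of 30367 probes at 7 h and 4160 at 24 h had an unadjusted p under 0.05, and the lowest adjusted p among the 38 genes was 0.29 at 7 h and 0.275 at 24 h.

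The count at 7 h was 1 of 38 genes higher, beside 3.89% of all 15148 named genes, and 1 of 38 lower, beside 8.07%. No member reached a fold of 2 as well, which 1.56% of named genes did upward and 2.07% downward. At 24 h, 3 of 38 were higher, beside 6.36% of named genes, and 1 was lower, beside 6.9%. With a fold of at least 2, the 24 h count was 2, Ccnd1 and Mcm3, beside 2.74% of named genes, and none was lower, beside 2.38%. These counts are near the background shares. The median change of the 38 genes was -0.02 at 7 h and 0.20 at 24 h, against -0.11 and -0.03 over all named genes. The response at 24 h minus that at 7 h had an unadjusted p under 0.05 for none of the 38 genes, beside 3.43% of named genes in either direction. Tyms came nearest, with 0.43 (SE 0.30) and an adjusted p = 1.

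**Figure D2:**
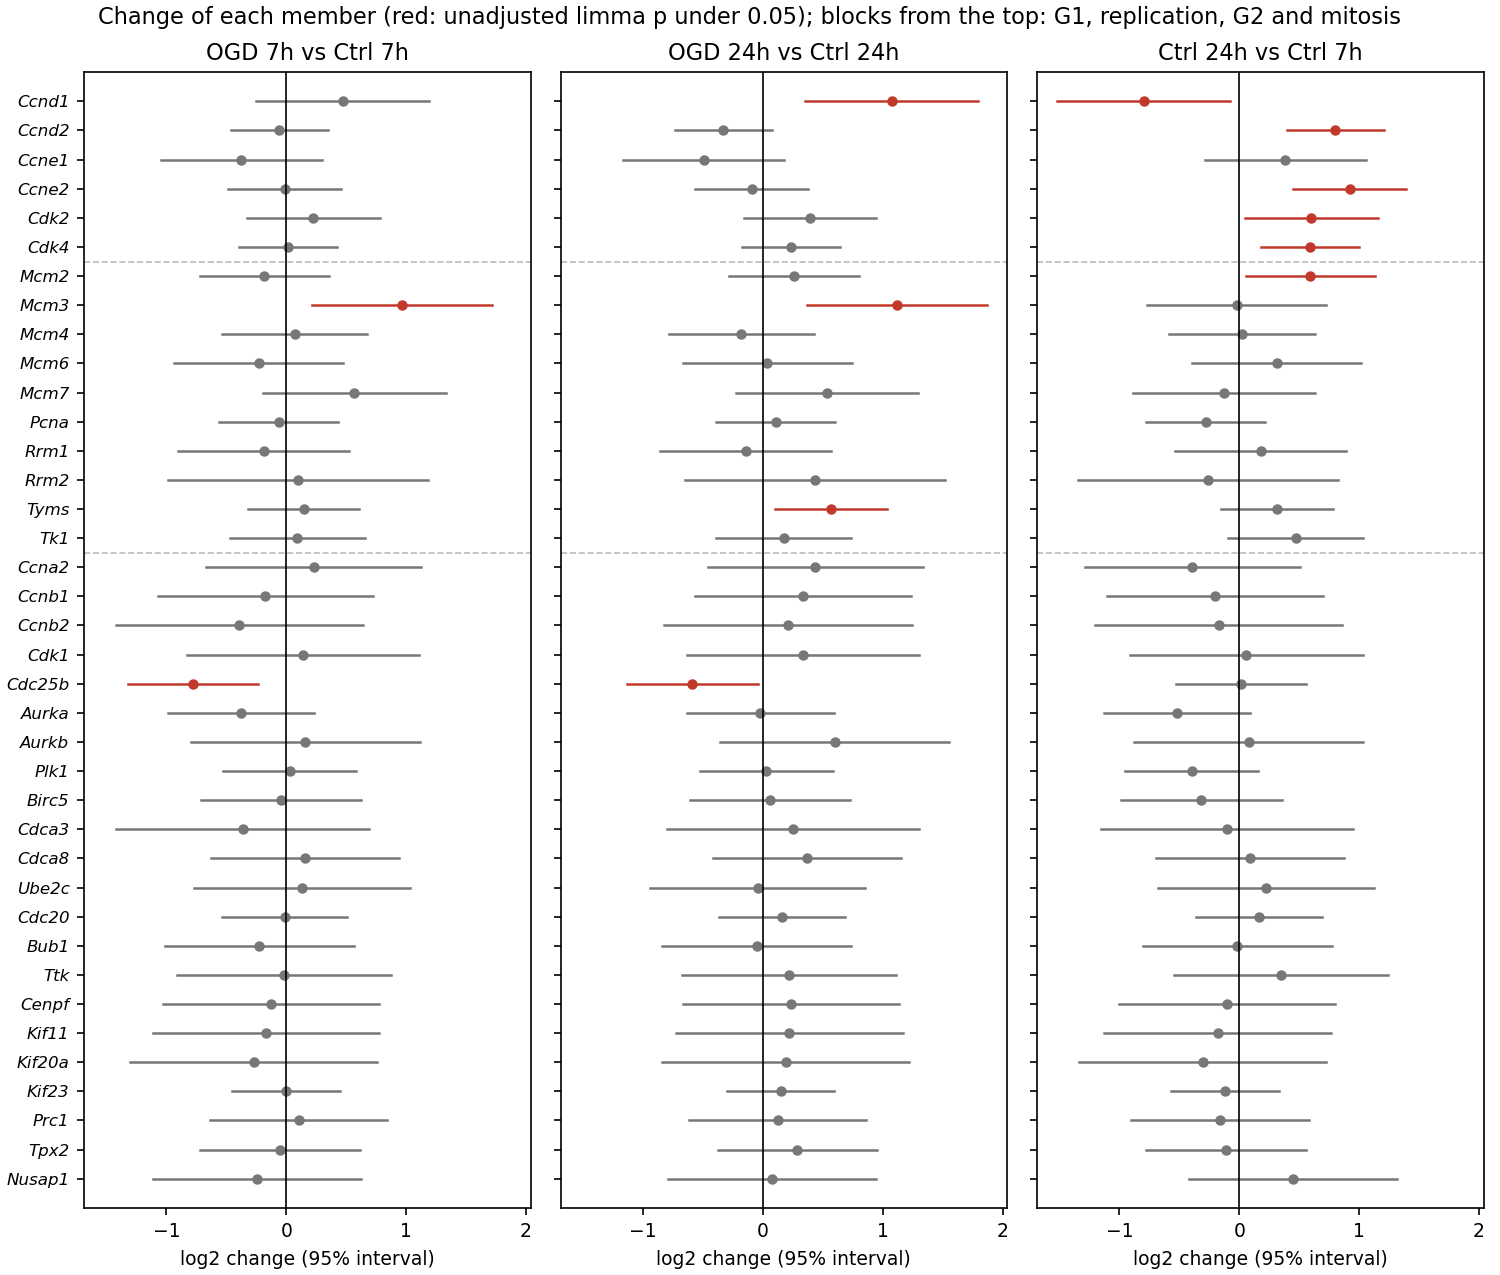
Log2 change of each of the 38 genes with its 95% interval in the limma model, for OGD against control at 7 h and 24 h and for the controls at 24 h against 7 h, with unadjusted p under 0.05 in red. Red points in the OGD panels are Mcm3 and Cdc25b at 7 h, and Ccnd1, Mcm3, Tyms and Cdc25b at 24 h, and most other intervals span 0.

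Mcm3, a subunit of the MCM helicase, had the largest change of the replication genes after OGD. Its signal was 2.10, 2.71 and 2.57 in Ctrl 7h replicates 1 to 3 and 3.51, 3.27 and 3.50 in OGD 7h. At 24 h it was 2.04, 2.59 and 2.68 in the controls and 4.37, 2.99 and 3.31 after OGD. All 3 OGD arrays exceeded all 3 controls at each time. The log2 change was 0.96 (SE 0.34, 1.95-fold, limma adjusted p = 0.325) at 7 h and 1.12 (SE 0.34, 2.17-fold, adjusted p = 0.275) at 24 h. Without OGD 24h replicate 1 the second value was 0.71, and on the slides of replicates 2 and 3 alone the changes were 0.74 and 0.51, each still with an unadjusted p under 0.05. Without Ctrl 7h replicate 1 the 7 h change was 0.78 and was no longer called. The call was also lost at 24 h with the methods' t-test, at 7 h with the mean over the gene's probes (0.54), and at both times with normexp background correction (0.43 and 0.65). A second Mcm3 probe, with lower signal, read 0.12 (adjusted p = 0.904) at 7 h and 0.65 (adjusted p = 0.435) at 24 h, so the 2 probes of the gene differed in size.

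None of the other measured subunits of the helicase was called. Mcm7 changed by 0.57 (95% interval -0.19 to 1.33) at 7 h and 0.54 at 24 h, and was higher on all 3 slides at 7 h. Mcm2, Mcm4 and Mcm6 changed by -0.18, 0.07 and -0.23 at 7 h and by 0.26, -0.18 and 0.04 at 24 h, none with an unadjusted p under 0.05. The subunits work as a ring, and of the 5 measured only Mcm3 was called in the OGD comparisons. Mcm4 was called at 24 h without OGD 24h replicate 3 (-0.50). The difference between Mcm3 and the other subunits was not tested.

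Tyms, the thymidylate synthase, which makes the thymidine nucleotide for DNA, read 0.85, 0.93 and 0.74 in Ctrl 24h and 1.70, 1.18 and 1.35 in OGD 24h. The 24 h groups did not overlap, and the change was 0.57 (SE 0.21, 1.48-fold, limma adjusted p = 0.311). At 7 h its signal was 0.77, 0.40 and 0.42 in controls and 0.42, 0.61 and 0.98 after OGD, groups that overlapped. Without OGD 24h replicate 1 (0.43) or Ctrl 24h replicate 3 (0.52), Tyms no longer had an unadjusted p under 0.05, nor on the slides of replicates 2 and 3 (0.43), with normexp background correction (0.25), in limma on the 2 groups alone or with the slide as a replicate block. Rrm2, the inducible subunit of ribonucleotide reductase, varied more than any change it showed, with 3.64, 4.44 and 4.50 in Ctrl 7h against 3.01, 4.67 and 5.19 in OGD 7h. At 24 h Rrm2 was 3.52, 4.22 and 4.04 in controls and 4.22, 4.11 and 4.76 after OGD (change 0.44, 95% interval -0.65 to 1.52). Pcna, the sliding clamp of the replicative polymerases, read 5.02, 4.55 and 4.66 in Ctrl 7h and 4.60, 4.57 and 4.87 in OGD 7h. At 24 h Pcna was 4.40, 4.59 and 4.39 in controls and 4.21, 4.50 and 4.99 after OGD. Its interval ran from -0.56 to 0.43 at 7 h and from -0.39 to 0.60 at 24 h, which leaves out a 2-fold change in either direction. Rrm1, the large subunit of the reductase, and Tk1, thymidine kinase, changed by -0.19 and 0.09 at 7 h and by -0.14 and 0.17 at 24 h.

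Among G1 genes, Ccnd1, the cyclin D that growth factor signals induce, was the only one called after OGD. Its signal was 3.56, 3.63 and 4.28 in Ctrl 7h and 3.99, 4.32 and 4.58 in OGD 7h. At 24 h it was 2.68, 3.22 and 3.19 in the controls and 4.80, 3.83 and 3.69 after OGD. The OGD array was the higher one on all 3 slides at both times, and the groups were apart at 24 h alone. The change was 0.47 (95% interval -0.25 to 1.19, limma adjusted p = 0.582) at 7 h and 1.07 (SE 0.33, 2.11-fold, adjusted p = 0.277) at 24 h. The control level itself was lower at 24 h than at 7 h, by a log2 change of -0.80 (adjusted p = 0.311), so the 24 h difference is measured from a lower base. Without OGD 24h replicate 1 the 24 h change was 0.73 and was still called, and on the slides of replicates 2 and 3 alone it was 0.55 and was not. Nor was it called with the methods' t-test or with normexp background correction (0.64).

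Ccnd2, the other cyclin D on the list, was not called after OGD. It read 4.14, 4.48 and 4.01 in Ctrl 7h and 4.06, 4.11 and 4.28 in OGD 7h, and at 24 h 4.95, 5.10 and 4.97 in the controls and 4.91, 4.52 and 4.61 after OGD. Its change at 24 h was -0.33 (95% interval -0.74 to 0.07, limma adjusted p = 0.438), lower on 3 of 3 slides. Without OGD 24h replicate 1 it was -0.45 and had an unadjusted p under 0.05. Cdk4, the kinase that cyclin D activates, was 4.81, 4.63 and 4.70 in Ctrl 7h, 4.60, 4.64 and 4.94 in OGD 7h, 5.05, 5.47 and 5.39 in Ctrl 24h and 5.50, 5.74 and 5.37 in OGD 24h. Its changes after OGD were 0.01 and 0.23. Ccne1 and Ccne2, the cyclins E, changed by -0.38 and -0.01 at 7 h and by -0.49 and -0.09 at 24 h, and Cdk2, their kinase, by 0.23 and 0.39. None of these had an unadjusted p under 0.05, though Ccne1 did at 24 h without OGD 24h replicate 3 (-0.78).

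**Figure D3:**
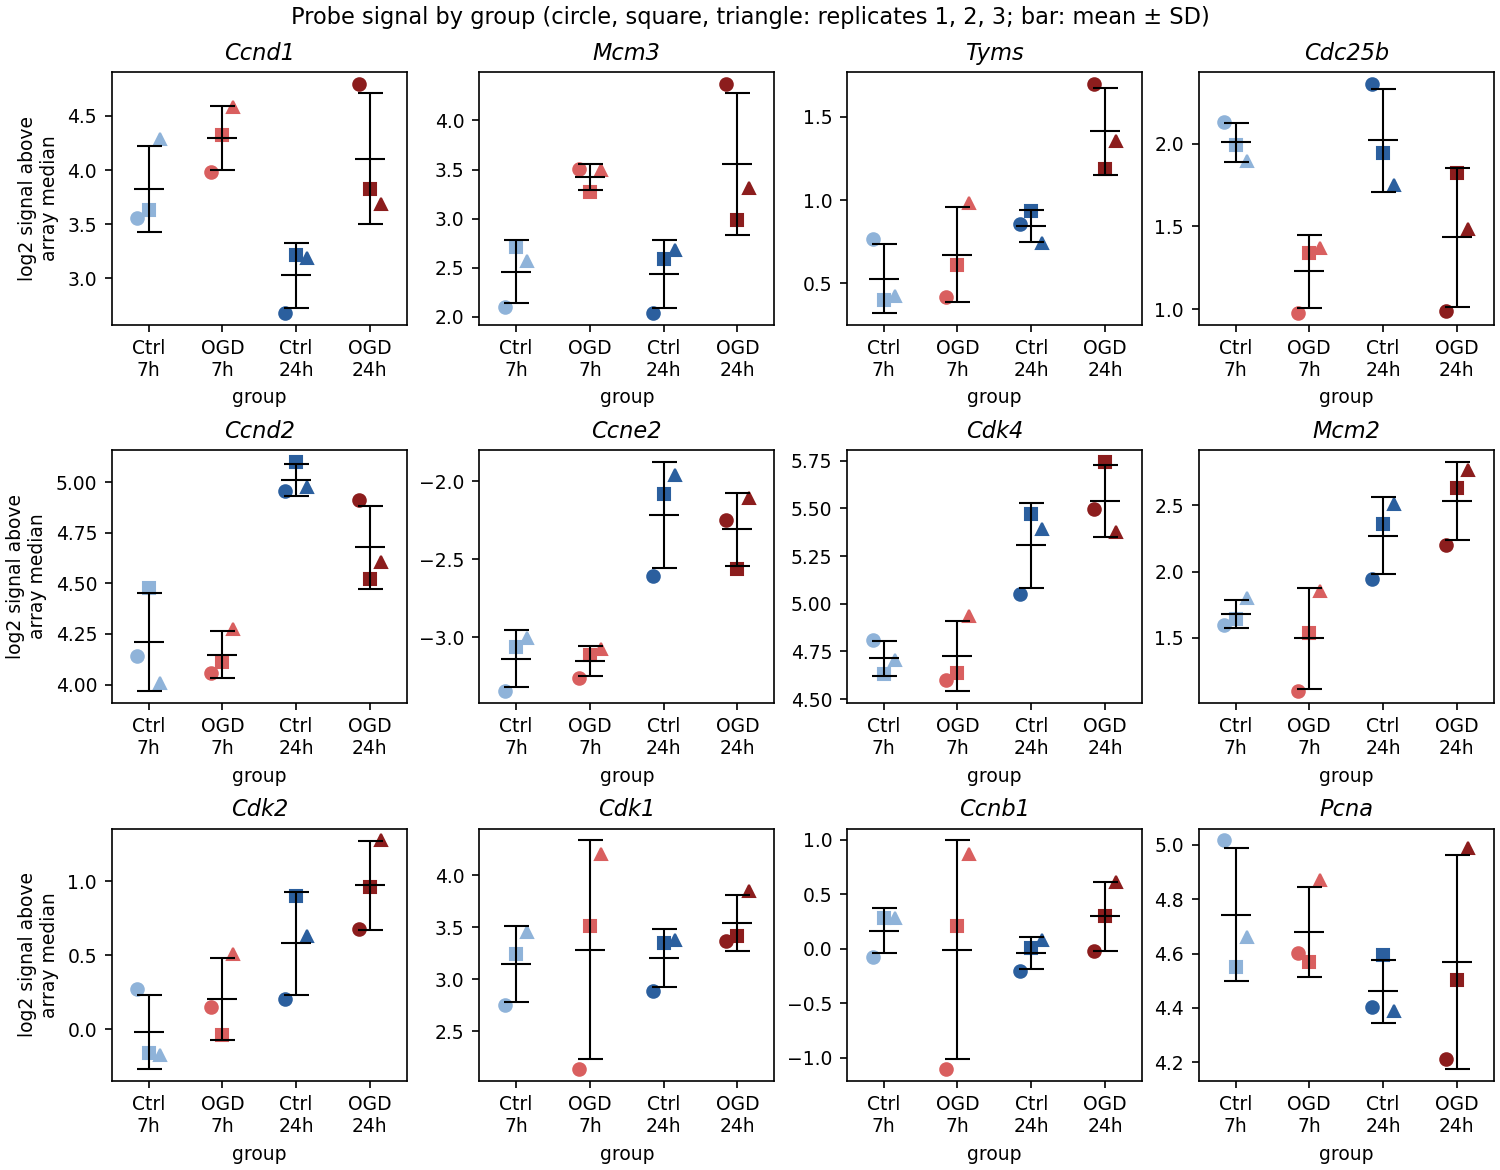
Log2 signal above the array median of 12 genes in each culture, by group, with the mean and SD of 3 cultures (circles, squares and triangles are replicates 1, 2 and 3, and each vertical axis has its own range). Mcm3 lies higher in both OGD groups and Cdc25b lower, while Cdk1 and Ccnb1 spread most in OGD 7h.

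Mitotic genes gave 1 call. Cdc25b, the phosphatase that activates Cdk1 at the entry to mitosis, read 2.13, 1.99 and 1.90 in Ctrl 7h and 0.98, 1.34 and 1.37 in OGD 7h. At 24 h it was 2.36, 1.94 and 1.75 in the controls and 0.99, 1.82 and 1.49 after OGD. Each slide of either time had the OGD array below its control, with groups apart at 7 h and overlapping at 24 h. The change was -0.78 (SE 0.25, limma adjusted p = 0.29) at 7 h and -0.59 (SE 0.25, adjusted p = 0.339) at 24 h. The 24 h call was lost without Ctrl 24h replicate 1 (-0.42), Ctrl 24h replicate 2 (-0.63), OGD 24h replicate 1 (-0.37) or OGD 24h replicate 3 (-0.61), and with the slides of replicate 1 left out the change was -0.19 and not called. A second Cdc25b probe read -0.29 (adjusted p = 0.816) and -0.07 (adjusted p = 0.983), and the mean of both probes gave no call at either time.

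Neither the kinase that Cdc25b activates nor its cyclin was called. Cdk1 was 2.75, 3.24 and 3.45 in Ctrl 7h and 2.13, 3.52 and 4.20 in OGD 7h, then 2.89, 3.35 and 3.38 in Ctrl 24h and 3.36, 3.41 and 3.85 in OGD 24h. Ccnb1, its cyclin, was -0.07, 0.28 and 0.28 in Ctrl 7h and -1.11, 0.21 and 0.87 in OGD 7h, then -0.20, 0.00 and 0.08 in Ctrl 24h and -0.02, 0.30 and 0.61 in OGD 24h. In both genes the OGD 7h cultures reached below and above all 3 controls of that time. The change of Cdk1 was 0.14 (95% interval -0.83 to 1.11) at 7 h and 0.34 (-0.63 to 1.31) at 24 h, intervals that leave room for a 2-fold increase at either time.

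The remaining mitotic genes are those of kinetochore and checkpoint signaling (Bub1, Ttk, Cenpf), the chromosomal passenger complex (Aurkb, Birc5, Cdca8), the mitotic kinases Aurka and Plk1, the ubiquitin pathway that ends mitosis (Cdc20, Ube2c), the motors and bundlers of the spindle (Kif11, Kif20a, Kif23, Prc1, Tpx2, Nusap1), cyclins A2 and B2 (Ccna2, Ccnb2) and Cdca3. None had an unadjusted p under 0.05 after OGD. Over all 22 mitotic genes the changes ran from -0.78 to 0.23 at 7 h, with 15 below 0, and from -0.59 to 0.60 at 24 h, with 18 above 0, and their medians were -0.05 and 0.20. Aurkb, the kinase of the passenger complex, had the largest positive value at 24 h, 0.60 (95% interval -0.36 to 1.56), and was higher on 3 of 3 slides at both times. Counting all 38 genes, 4 were higher and 3 lower on all 3 slides at 7 h, beside 20.1% and 26.6% of named genes. At 24 h 12 were higher and 2 lower on all 3, beside 17.9% and 13.1%.

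At 7 h after OGD the mitotic genes spread widely between cultures. The median SD of the 22 genes was 0.77 in OGD 7h, with a range from 0.22 to 1.14, against 0.25 in Ctrl 7h, 0.26 in Ctrl 24h and 0.33 in OGD 24h. Over all named genes the median SD in OGD 7h was 0.22. In that group replicate 1 was the lowest culture for 22 of 22 mitotic genes and replicate 3 the highest for 22 of 22, where 45.3% and 42.3% of all named genes had that lowest and that highest culture. Set against the control on its own slide, the median difference of the 22 genes was -0.67 in replicate 1 (20 of 22 lower), -0.06 in replicate 2 (12 lower) and 0.43 in replicate 3 (21 of 22 higher). The slides of replicates 1 and 3 thus differed in direction. At 24 h the slide medians were 0.20, -0.05 and 0.34. Genes of 1 culture share that culture, and the 22 values are not replicates of it.

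**Figure D4:**
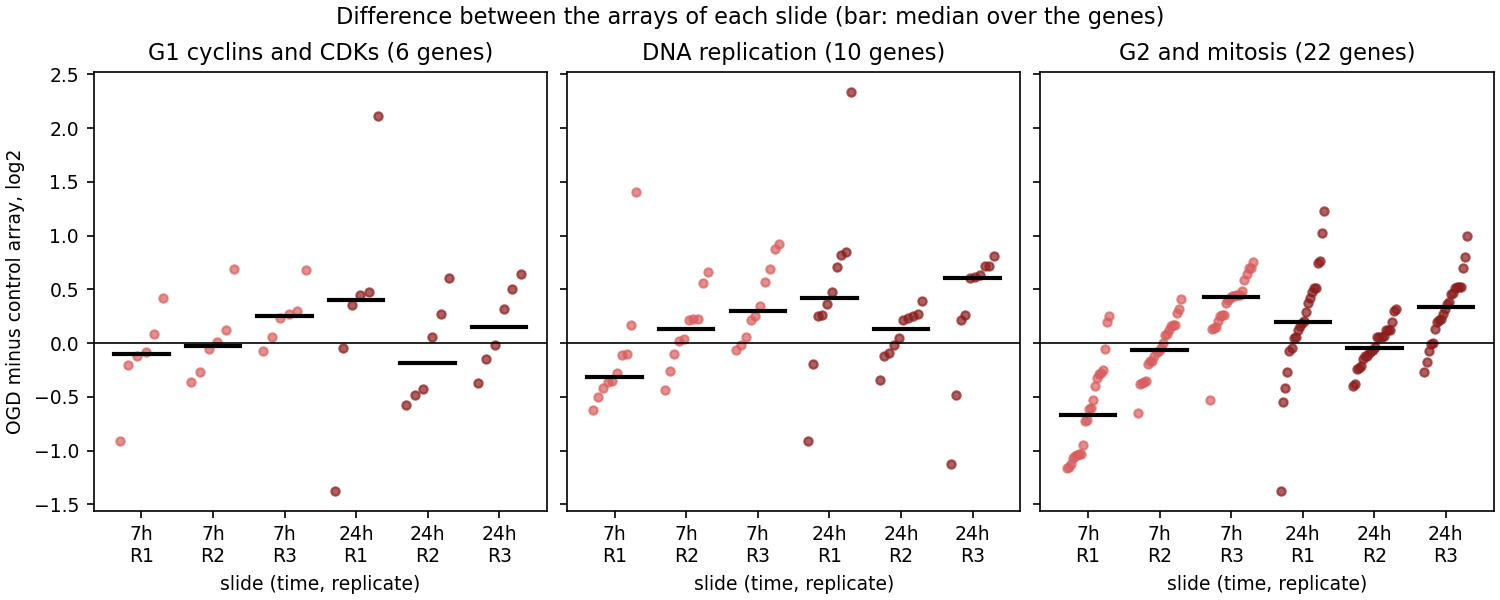
Difference between the OGD and the control array of each slide in log2, with 1 point per gene and a bar at the median, for 6 G1 genes, 10 replication genes and 22 genes of G2 and mitosis. The mitotic genes lie mostly below 0 on the 7 h slide of replicate 1 and above 0 on that of replicate 3.

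The same order held in mitotic genes outside the 42. On a list of 39 further mitotic genes with a probe, OGD 7h replicate 1 was the lowest for 33 and replicate 3 the highest for 32, and on a list of 27 further replication genes for 25 and 24. Replicate 1 was also the lowest control for 18 of the 22 mitotic genes at 7 h and for 18 at 24 h, where 23.2% and 27.2% of named genes had it lowest, although the spread there was smaller. Without OGD 7h replicate 1, the 7 h count of higher genes became 4 of 38, namely Mcm3, Mcm7, Ccna2 (0.74) and Cdk1 (0.71), at an unadjusted p under 0.05. Without Ctrl 7h replicate 1 it became 0. Without OGD 7h replicate 3, the count of lower genes became 2, with Aurka (-0.66) beside Cdc25b. At 7 h the calls among the mitotic genes other than Cdc25b thus turned on which culture was left out. Of all 30367 probes, 1705, 2729 and 3963 had such a p in these 3 settings, in that order. These probes are counted in either direction, beside 3590 with all arrays.

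Markers of the cells that could divide moved between these cultures too. The level of a list is the sum of its genes' linear signals in units of the array median. Oligodendrocyte lineage markers (12 of 13 well above background on all arrays) summed to between 223 and 232 in Ctrl 7h, and to 119, 181 and 259 in OGD 7h replicates 1, 2 and 3. The summed mitotic genes were 31.7, 63 and 89.2 in the same 3 cultures, against 52.1 to 65.8 in Ctrl 7h, the same order. Of the 13 lineage markers, 3 were called lower after OGD at 7 h and none higher, beside 8.07% and 3.89% of named genes, and 5 had a change above 0. Called were Cspg4 (NG2), Sox10 and Gpr17, Cspg4 with a change of -1.07 (limma adjusted p = 0.322) and 3.11, 4.31 and 4.82 in OGD 7h. On the slide of replicate 3, Cspg4 and Sox10 were not lower after OGD (0.04 and 0.24). Astrocyte markers (13 of 15 listed were well above background on all arrays) included 5 probes that were saturated on some arrays, among them those of Slc1a3, Fabp7 and Aldoc, the 3 markers called higher at 7 h, so neither these calls nor the full sum are read as a level. The 9 markers saturated on no array summed to 499, 387 and 504 in OGD 7h replicates 1, 2 and 3 and to 383, 386 and 418 in Ctrl 7h, with no order like that of the mitotic genes. The part of either list in the spread of the mitotic genes was not tested.

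Vascular and fibroblast markers (8 of 12 well above background on all arrays, Tek on none) summed to 59.9, 186 and 166 in OGD 7h and to 43.6, 82.2 and 144 in Ctrl 7h, lowest in replicate 1 each time. Gene by gene, 3 of these 12 were called lower at 7 h and none higher, beside 8.07% and 3.89% of named genes. Their median change was -0.38, with 7 below 0, so the sums do not show the direction of most of the list. Of 10 progenitor markers with a probe, 1 was called lower at 7 h and none higher, with 5 below 0. Microglial markers (10 of 15, Ptprc on no array) summed to 19.2 to 19.5 in Ctrl 7h and 18.9 to 32.5 in OGD 7h, with 32.5 in replicate 1. At 24 h they summed to 23.9 to 28.3 in controls and 28.7 to 39.9 after OGD. In each of the 3 comparisons 1 of the 15 was called higher (6.67%) and none lower. Of named genes 3.89%, 6.36% and 5.47% were higher and 8.07%, 6.9% and 9.75% lower, at 7 h, 24 h and between controls. Called were Cx3cr1 at 7 h (1.02, limma adjusted p = 0.263) and between controls (1.25, adjusted p = 0.0947), and Cd68 at 24 h (0.96, adjusted p = 0.332). Above 0 were 8 at 7 h, 13 at 24 h and 5 between controls. Progenitor markers (9 of 12 listed) ranged from 163 to 243 in Ctrl 7h and from 194 to 295 in OGD 7h, and at 24 h from 168 to 399 in controls and from 382 to 515 after OGD. At 24 h, 2 of 10 progenitor markers with a probe, 1 of 13 oligodendrocyte lineage markers and 1 of 12 vascular and fibroblast markers were called higher and none lower, and 3, 6 and 6 of them had a change below 0. Of all named genes 6.36% were called higher and 6.9% lower, so the last 2 lists (7.69% and 8.33% higher) were near that share. Nes (0.75, limma adjusted p = 0.314), the intermediate filament nestin, and Sox2 (0.48, adjusted p = 0.334), a stem cell factor, were the called progenitor markers, with Olig2 (0.48, adjusted p = 0.344) and the pericyte receptor Pdgfrb (1.34, adjusted p = 0.269) on the other lists. All 15 neuronal markers had a change below 0 at 24 h, and 9 were called lower, beside 6.9% of named genes. Their median change was -0.87, and their sum was 355, 713 and 775 in OGD 24h against 766 to 1113 in Ctrl 24h. Over the 13 neuronal markers saturated on no array the sums were 161, 355 and 421 against 406 to 652. Because every value is relative to the array median, a loss of neuronal RNA and a gain of dividing cells cannot be told apart in these values, and the part of the neuronal markers in the changes of Ccnd1, Mcm3 and Tyms was not tested.

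Between the control cultures, the G1 genes differed most. At 24 h against 7 h, 5 of 38 genes were higher, beside 5.47% of named genes, and 1 was lower, beside 9.75%. Higher were Ccnd2, Ccne2, Cdk4, Cdk2 and Mcm2, and lower was Ccnd1, so 5 of the 6 G1 genes were called. None reached a fold of 2, which 0.878% of named genes did upward and 4.27% downward. None passed the adjustment, with a lowest adjusted p of 0.104 for Ccnd2, although 64 of 30367 probes did. The median change was 0.60 over the 6 G1 genes, 0.10 over the 10 replication genes, -0.11 over the 22 mitotic genes and -0.05 over all named genes.

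Ccnd2, whose signals are given above, was higher in every 24 h control than in any 7 h control, by 0.80 (SE 0.18, 1.74-fold, limma adjusted p = 0.104). Ccne2 was -3.35, -3.06 and -3.01 in Ctrl 7h and -2.61, -2.08 and -1.96 in Ctrl 24h, again without overlap, a change of 0.92 (SE 0.21, 1.89-fold, adjusted p = 0.106). After OGD it read -3.26, -3.12 and -3.08 at 7 h and -2.25, -2.56 and -2.11 at 24 h, close to the control of its own time, and it was a dim probe, below the array median throughout. Cdk4 changed by 0.59 (SE 0.19, adjusted p = 0.204) with groups apart. Cdk2 was 0.27, -0.16 and -0.17 in Ctrl 7h and 0.21, 0.90 and 0.63 in Ctrl 24h, groups that overlapped, with a change of 0.60 (adjusted p = 0.313). The call was lost without Ctrl 7h replicate 2 or 3 or Ctrl 24h replicate 2 or 3, with changes from 0.44 to 0.57, and with the methods' t-test. In the OGD groups Cdk2 read 0.15, -0.04 and 0.51 at 7 h and 0.68, 0.96 and 1.28 at 24 h.

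Mcm2, of the helicase, was 1.60, 1.64 and 1.80 in Ctrl 7h and 1.95, 2.36 and 2.51 in Ctrl 24h, a change of 0.59 (SE 0.24, limma adjusted p = 0.311), and 1.10, 1.54 and 1.85 in OGD 7h and 2.20, 2.63 and 2.77 in OGD 24h. The call was lost without Ctrl 7h replicate 1 or 2 or Ctrl 24h replicate 2 or 3, with changes from 0.47 to 0.57. Its other probe read 0.02 (adjusted p = 0.985) for the controls, so the change was seen with 1 of its 2 probes. Ccnd1 was lower at 24 h in each of the numbered control pairs, and the call was lost without Ctrl 7h replicate 3 (-0.57) or Ctrl 24h replicate 1 (-0.62), with the methods' t-test, with centring on the 75th percentile (-0.83) and with quantile normalization (-0.81). No mitotic gene was called between the controls, Aurka coming nearest at -0.52 (95% interval -1.13 to 0.09), which was called without OGD 7h replicate 1 or 3, as was Plk1 (-0.40) without OGD 7h replicate 1. The methods' t-test and limma on the 2 control groups alone called Aurka, Plk1 and Nusap1 (0.45), and Aurka was also called with centring on the 75th percentile, with quantile normalization and on the slides of replicates 2 and 3. For this comparison, recovery time, slide, position on the slide and scan day cannot be told apart. Scaled to the spike-in RNA instead of the array median, all named genes shifted by -4.57 between these control groups and by -0.81 and -1.02 in the OGD comparisons, so the 5 increases hold relative to the other genes of the array. Relative to the median of all named genes, the median of the 38 genes was 0.09, 0.23 and 0.05 higher in the 3 comparisons. Spike-in scaling moves all genes of an array by 1 amount, so it cannot change these differences and is no test of them.

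Genes that restrain or set the cycle were read from lists beside the 42, and again none had an adjusted p under 0.05. Of 7 CDK inhibitors, 1 was higher and 1 lower at 7 h, beside 3.89% and 8.07% of named genes. At 24 h 2 were higher and none lower, beside 6.36% and 6.9%. Cdkn2b (p15), an inhibitor of Cdk4 and Cdk6, was 0.43, 0.14 and 0.28 in Ctrl 7h and 1.09, 1.02 and 1.09 in OGD 7h, and -0.19, 0.05 and 0.14 in Ctrl 24h and 1.93, 0.75 and 0.94 in OGD 24h. It was higher in every OGD culture than in any control of its time, by 0.78 (limma adjusted p = 0.322) and 1.21 (2.31-fold, adjusted p = 0.252). Cdkn1c (p57), which holds progenitors out of the cycle, was 4.20, 3.75 and 4.24 in Ctrl 7h against 0.87, 1.58 and 2.39 in OGD 7h, a change of -2.45 (5.46-fold lower, adjusted p = 0.264). In OGD 24h it read 0.85, 2.54 and 3.44 against 1.90, 3.71 and 3.36 (adjusted p = 0.632). Cdkn1a (p21), a p53 target, changed by 0.23 and -0.04 after OGD. At 24 h Cdkn2a was the other inhibitor called, at 0.67 (adjusted p = 0.29).

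Of 14 genes of the Rb and E2F pathway with a probe, 3 were higher and 1 lower at 7 h, beside 3.89% and 8.07% of named genes. At 24 h 1 was higher, beside 6.36%, which is near the background share. Cdk6, the second kinase of the D-type cyclins, was -1.26, -1.04 and -0.52 in Ctrl 7h and -0.01, -0.12 and 0.13 in OGD 7h. At 24 h Cdk6 was -1.60, -1.32 and -0.97 in controls and 0.78, -0.53 and -0.51 after OGD, with groups apart at both times and changes of 0.94 (limma adjusted p = 0.343) and 1.21 (2.31-fold, adjusted p = 0.269). E2f3 was higher at 7 h (0.84, adjusted p = 0.276) and Tfdp2, an E2F partner, lower (-0.67, adjusted p = 0.343). Rbl1 (p107) was well above background on no Ctrl 7h array and on 1 OGD 7h array, and no fold is given for it. Ccnd1, Cdk6 and the inhibitor Cdkn2b were thus all called higher 24 h after OGD at an unadjusted p under 0.05, while Cdk4 and Ccnd2 were not called. Each of the called genes had its highest OGD 24h value in replicate 1, the array with the lowest median intensity. Cdk6 and Cdkn2b were not read with that array left out. Whether these genes changed in the same cells was not measured.

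Of 27 further replication genes, 1 was higher at 7 h (3.7%, beside 3.89% of named genes) and 4 at 24 h (14.8%, beside 6.36%). None was lower after OGD at either time, beside 8.07% and 6.9% of named genes. Those at 24 h included Gins2 (0.88, adjusted p = 0.301), of the replicative helicase, Orc1 (0.57, adjusted p = 0.311), of the origin recognition complex, and Dbf4 (0.53, adjusted p = 0.347), the activator of the Cdc7 kinase. Between controls 3 were higher (Mcm10, Pold1 and Lig1) and 3 lower at 24 h, beside 5.47% and 9.75% of named genes. Among the lower were Gmnn, the inhibitor of origin licensing, at -0.88 (adjusted p = 0.0848), and Fen1, the flap endonuclease, at -0.89 (adjusted p = 0.0755). Median changes of the 27 genes after OGD were -0.06 at 7 h and 0.18 at 24 h.

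Of 39 further mitotic genes, 1 was higher and 1 lower at 7 h (2.56% each), beside 3.89% and 8.07% of named genes. At 24 h 1 was higher (2.56%), beside 6.36%. Cenpa, the histone H3 variant of centromeres, was -0.77, -1.03 and -0.09 in Ctrl 7h and 1.42, 0.42 and 0.09 in OGD 7h, a change of 1.27 (2.42-fold, limma adjusted p = 0.27). At 24 h it was -3.16, -2.67 and -2.41 in the controls and -1.64, -2.05 and -2.09 after OGD (0.82, adjusted p = 0.362). The controls alone differed between the times by -2.12 (adjusted p = 0.0531), the largest change of the list, so its OGD values at 24 h lay below its controls at 7 h. Kif22, a chromosome motor, was lower at 7 h after OGD (-0.82, adjusted p = 0.276) and lower between controls (-0.99, adjusted p = 0.128). Median changes of this list were -0.08 at 7 h and 0.13 at 24 h.

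Read by role, calls after OGD at 24 h fell on a G1 cyclin (Ccnd1), the helicase subunit Mcm3 and a nucleotide enzyme (Tyms), and of the 22 mitotic genes only Cdc25b was called, downward, at either time. For 20 of the 38 genes the 95% interval lay within a 2-fold change in either direction at 7 h, and for 20 at 24 h. For the others the interval reached past a 2-fold change, so a change of that size was not excluded.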

How the data were processed

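RNA of 12 rat hippocampal cultures, 3 per group, was labeled with Cy3 and hybridized to Agilent one-color arrays. The deposited intensity values are Feature Extraction's processed signals, from which the authors' software had subtracted background and spatial trends, with no normalization between arrays. The authors' deposited log2 values are the same intensities after their centring, and served as an alternative.

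Spots marked as outliers were dropped, the log2 intensities of the remaining spots were averaged per probe, and each array was centred on the median of its 30367 non-control probes. Probes were named through their transcript accession and RefSeq (17996 probes, 15148 genes), and 12371 stayed unnamed. Groups were compared in 1 limma model (limma 3.58.1, R 4.3.3) of 4 groups over all probes, with two-sided p-values adjusted by Benjamini-Hochberg. A call needs an unadjusted p under 0.05, and counts with a fold of at least 2 stand beside it. The procedure was tested on simulated data. Genes named are a set of cell cycle markers, every member called, and called pathway genes, chiefly those with a fold of at least 2. Members, lists and motifs were chosen with earlier results of these data known. No depth applies to arrays, whose number limits the precision. Alternatives covered scaling, background, dim probes, the methods' t-test, slide blocks, array weights, probe averaging and each array left out.

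Deviations of same-numbered OGD and control arrays correlated weakly, and the main model has no block. Those of control replicates 1 and 3 correlated more, so whether equal numbers share a preparation was not settled. A listed replication gene is counted in its list but not reported here by name.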

Additional observations from a re-analysis of the deposited data

Results flagged for a closer look

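Smc2, a condensin subunit on the list of further mitotic genes, was higher after OGD on 3 of 3 slides at 7 h and lower on 3 of 3 at 24 h. Its response at 24 h minus that at 7 h was -1.02 (limma interaction adjusted p = 1), so the difference did not pass the test. The changes were 0.64 (adjusted p = 0.495) at 7 h and -0.37 (adjusted p = 0.641) at 24 h.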

How the results depend on the processing

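Counts of called genes were small and moved with many settings. The 6 counts, given as higher then lower for the 7 h comparison, the 24 h comparison and the controls, were 1, 1, 3, 1, 5 and 1. Spike-in scaling, which rests on 1 kind of spike-in probe with 32 spots, gave 0, 0, 0, 0, 0 and 38, and medians of -0.83, -0.82 and -4.57. Normexp on the median spot signal gave 0 for the higher genes of all 3 comparisons and 0 for the lower ones at 24 h. Array weights gave 3, 4, 5, 4, 10 and 3, and 6 for the interaction in place of 0, with 1 convergence warning and weights from 0.0883 to 11.4. Under these weights 13890, 10549 and 13953 of 30367 probes had an unadjusted p under 0.05 in the 3 comparisons, and 10295 for the interaction. In each case this is a larger share than that of the 38 genes. The mean over a gene's probes gave 0 higher and 0 lower at 7 h, and at 24 h 0 lower. The methods' t-test gave 1 higher and 0 lower at 24 h and 2 lower between controls. Limma on 2 groups alone gave 0 lower at 24 h and 3 lower between controls. The slide as a fixed replicate block gave 0 lower at 24 h. The slides of replicates 2 and 3 alone, chosen after seeing the data, gave 1 higher and 0 lower at 24 h and 2 lower between controls. With 1 array left out the counts ran from 0 to 4, 1 to 2, 2 to 3, 0 to 2, 3 to 6 and 0 to 3, and the medians from -0.28 to 0.26, 0.05 to 0.29 and -0.15 to 0.12. Probes with an unadjusted p under 0.05 then ran from 1705 to 6399, 2087 to 6470 and 2492 to 7729 of the 30367. The causes were not tested. Centring on the 75th percentile shifted all named genes by 0.11 in both OGD comparisons. Between controls 1 of the 38 genes passed the adjustment with quantile normalization (434 of 30367 probes) and 1 without OGD 24h replicate 1 (812 probes). Array weights let 5, 3 and 10 pass, and 1 for the interaction, beside 10915, 5727, 10843 and 4656 probes. With spike-in scaling 38 passed between controls, beside 30346 probes.

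Deviations of same-numbered arrays of a slide, over 15116 genes, correlated at -0.02, 0.15 and 0.03 at 7 h. At 24 h they correlated at 0.11, 0.18 and 0.04. Same-numbered arrays of the control groups correlated at 0.30, 0.04 and 0.32. Of unlike numbers, Ctrl 7h replicate 1 with Ctrl 24h replicate 3 read -0.36, and Ctrl 7h replicate 3 with Ctrl 24h replicate 1 read -0.26. Whether equal numbers share a preparation was thus not settled, and the main model does not pair them. The replicate block changed no other count by over 1.5 times.

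Spike-in scaling, which shifted all named genes alike by -1.02 at 24 h, turned the sign of Tyms there (-0.46) and, between controls, of Ccnd2 (-3.77), Ccne1 (-4.19), Ccne2 (-3.65), Cdk2 (-3.97), Cdk4 (-3.98), Mcm2 (-3.98), Mcm4 (-4.55), Mcm6 (-4.26), Rrm1 (-4.39), Tyms (-4.26), Tk1 (-4.10), Cdk1 (-4.51), Cdc25b (-4.56), Aurkb (-4.49), Cdca8 (-4.48), Ube2c (-4.35), Cdc20 (-4.41), Ttk (-4.22) and Nusap1 (-4.13), with all named genes at -4.62.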
